A study of Mus musculus with 16 samples.

Results

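Expression of 10 heat shock chaperone genes was examined in microglia of the mouse olfactory bulb (OB). The genes were taken by symbol from the count table of 57010 genes and cover the inducible and constitutive cytosolic HSP70 proteins (Hspa1a, Hspa1b, Hspa8), the HSP110 protein Hsph1, the J-domain protein Dnajb1, both cytosolic HSP90 proteins (Hsp90aa1, Hsp90ab1), the small heat shock protein Hspb1 and the mitochondrial chaperonin subunits Hspd1 and Hspe1. All 10 were among the 18227 genes with enough counts to be tested. At 2 months of age, the study compared mice with the App NL-G-F knock-in (KI) against C57BL/6J wild type mice (WT). The knock-in humanises the amyloid-beta sequence of the endogenous App gene and adds familial Alzheimer mutations, so that every App-expressing cell carries them. Total RNA of CD11b bead-isolated microglia, dissociated enzymatically in a warm papain digestion, was sequenced from 16 libraries, 4 for each genotype and sex. The labels give the sex as f or m, carry replicate numbers 1 to 4 and do not say whether replicates came from separate mice, so that every p-value below measures the spread between these libraries, which may be technical.

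Chaperones bind unfolded proteins and help them to fold, or hold them until they can be degraded. HSP70 proteins bind and release their clients in a cycle driven by ATP, in which J-domain proteins deliver the client and HSP110 proteins exchange the nucleotide, and HSP90 proteins act later on signalling proteins such as kinases and steroid receptors. Heat and oxidants activate heat shock factor 1, which binds heat shock elements (inverted repeats of the bases GAA) in the promoters of inducible members, whereas Hspa8 and Hsp90ab1 are transcribed in unstressed cells as well.

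The libraries held 9052932 to 18117286 counts, and the 10 genes took 0.409% to 0.789% of them. Levels are given below as TMM-scaled CPM, that is counts scaled to a common library size. Xist was at 547 to 862 CPM in the f libraries and at no more than 0.448 CPM in the m libraries. The labelled cell type fitted its markers, since Cx3cr1 and P2ry12 were at no less than 2890 and 1400 CPM, although markers of other cells were also counted (Snap25, of neurons, up to 93.4 CPM and Flt1, of endothelium, up to 58.2 CPM). App itself overlapped between the genotypes, with 371 to 462 CPM in WT and 388 to 423 CPM in KI libraries, so its total count does not separate them. Libraries 1 to 8 by name are replicates 1 and 2 of all 4 groups and libraries 9 to 16 are replicates 3 and 4; the labels do not say what this division stands for, and because several chaperones followed it, each comparison is given with it.

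Promoter sequences from RefSeq on the build GRCm38.p6 were at hand for 7 of the 10 genes (all but Hsp90aa1, Hsp90ab1 and Hspa8), and those of Hspa1a and Hspa1b are shown for the 200 bases before the transcription start, because both genes carried the widest differences described below. Capitals mark a heat shock element pair, that is GAANNTTC or TTCNNGAA, which read the same on both strands. Hspa1a lies at chr17:34972157-34972356 and Hspa1b at chr17:34959239-34959438, both on the minus strand.
Hspa1a: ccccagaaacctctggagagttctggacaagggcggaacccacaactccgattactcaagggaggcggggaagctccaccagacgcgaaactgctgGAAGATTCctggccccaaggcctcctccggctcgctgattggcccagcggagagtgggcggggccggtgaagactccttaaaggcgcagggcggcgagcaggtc
Hspa1b: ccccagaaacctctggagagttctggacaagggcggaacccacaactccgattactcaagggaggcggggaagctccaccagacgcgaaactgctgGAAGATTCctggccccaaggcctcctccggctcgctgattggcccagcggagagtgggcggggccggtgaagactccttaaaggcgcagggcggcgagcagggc

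These stretches differed at 1 of 200 positions, and both held their only pair 104 bases before the start. In windows of 300 bases (250 before and 50 after the start), 6 of the 7 genes held a pair, compared to 15.1% of 32851 windows of all genes (7.86% for GAANNTTC and 8.52% for TTCNNGAA). Matches with 3 adjoining alternating units were found for Hsph1, Hspe1 and Hspd1, compared to 0.603% of all windows. No match was found for Dnajb1. For the remaining genes with a pair before the start, 30 bases that hold matches before it are shown (the 3 adjoining units of Hsph1 lie after its start and are not shown), on chr5:149636351-149636380 (Hsph1, minus strand), chr5:135887801-135887830 (Hspb1, plus strand) and chr1:55088053-55088082 (Hspe1, plus strand). The last stretch also belongs to a window of Hspd1, which is transcribed in the opposite direction and shares 285 bases with that of Hspe1. A match is a description of the letters and says nothing on binding in these cells.
Hsph1: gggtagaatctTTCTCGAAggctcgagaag
Hspb1: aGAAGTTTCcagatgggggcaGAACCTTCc
Hspe1: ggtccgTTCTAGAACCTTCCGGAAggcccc

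Hspa1a (GRCm39 chr17:35188166-35191132) and Hspa1b (chr17:35175412-35178214) are intronless neighbours that encode almost the same inducible HSP70 protein. Their coding sequences were 99.4% identical (8 substituted and 3 gapped of 1929 aligned bases), and the proteins of 641 and 642 residues differed by 1 gapped residue and by no substitution. Of all 75-base stretches of the transcripts, 1524 occurred in both, which is 52.7% of those of Hspa1a and 55.8% of those of Hspa1b. Reads that lie wholly within these stretches cannot be assigned to either gene. How the counting treated them was not given in the sources used here. The split between both genes, and the level of each against other genes, are therefore uncertain. The long noncoding RNA Gm20481 lies within Hspa1a on the opposite strand and had at most 53 counts per library.

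Per transcript length, Hspa8 was the most abundant member with 709.5 ± 110 RPKM (mean ± SD, n = 16), followed by Hsp90ab1 with 665 ± 74.0 RPKM. They are the constitutive forms, and their order did not hold beyond the spread, since Hspa8 exceeded Hsp90ab1 in 9 of 16 libraries. Hspa1b (305 ± 189 RPKM) and Hspa1a (239.5 ± 142 RPKM) came next, followed by Hsp90aa1 (180 ± 44.5 RPKM), the inducible HSP90. The ranks of Hspa1a and Hspa1b depend on how their shared reads were counted. Hspe1 reached 88.9 ± 16.2 RPKM, and Hspd1 (38.1 ± 6.45 RPKM) and Dnajb1 (36.8 ± 10.1 RPKM) could not be ordered, with Hspd1 above Dnajb1 in 8 of 16 libraries. Hsph1 had 28.7 ± 11.7 RPKM, and Hspb1 was the lowest with 5.87 ± 2.12 RPKM. Hspa1a was likewise above Hsp90aa1 in no more than 9 libraries, whereas Hsp90ab1, Hsp90aa1, Hspe1 and Hsph1 each stood above the gene ranked after them in 16 of 16.

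The inducible HSP70 genes varied the most. Among the KI f libraries, Hspa1a was at 1098, 1057, 1080 and 860 CPM (replicates 1 to 4), and among the KI m libraries at 1008, 967, 1174 and 1069 CPM. In the WT m libraries it was at 675 and 1083 CPM in replicates 1 and 2 and at 348 and 278 CPM in replicates 3 and 4. In WT f libraries it was at 22.4 and 26.2 CPM in replicates 1 and 2, compared to 292 and 333 CPM in replicates 3 and 4. Thus, the 8 KI libraries formed a narrow band, while WT libraries fell into 3 levels that followed sex and replicate division, and the genotypes overlapped, as replicate 2 of the WT m libraries lay within the KI range.

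Hspa1b showed the same arrangement over an even wider range. Replicates 1 to 4 were at 1341, 1302, 1410 and 1083 CPM in KI f and at 1231, 1252, 1392 and 1261 CPM in KI m libraries. In WT m libraries they were at 723, 1254, 417 and 350 CPM. In WT f libraries they were at 4.50, 3.24, 292 and 349 CPM. The lowest values correspond to 72 and 28 counts, and the 8 KI libraries were all above 7 of the 8 WT libraries. The SD of its log2 level within groups was 1.88, which ranked 1 among all tested genes, and that of Hspa1a was 1.16 and ranked 23, compared to a median of 0.239.

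**Figure D1:**
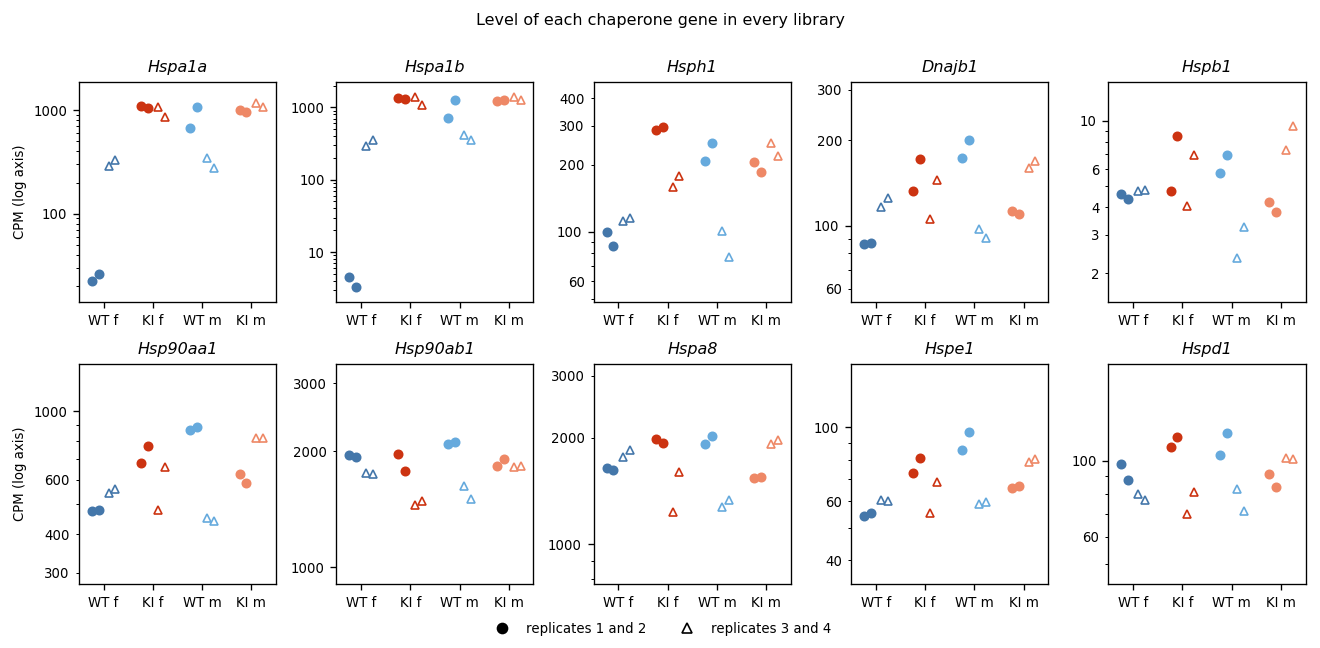
Each panel shows the CPM of 1 chaperone gene (log axis, scaled per gene) in the 16 libraries by group, with filled circles for replicates 1 and 2 and open triangles for replicates 3 and 4. Hspa1a and Hspa1b are lowest in WT f replicates 1 and 2, at 22.4 and 4.50 CPM or nearby, and most genes separate the circles from the triangles within WT m libraries.

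The ratio of both genes was stable in 14 of 16 libraries. The CPM of Hspa1b was 0.999 to 1.31 times that of Hspa1a in these, and 0.201 and 0.123 times in WT f replicates 1 and 2. Hence, Hspa1b lay further below its level elsewhere than Hspa1a did in these libraries. Gm20481 had 0 and 2 counts there, and at least 2 in each other library.

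**Figure D2:**
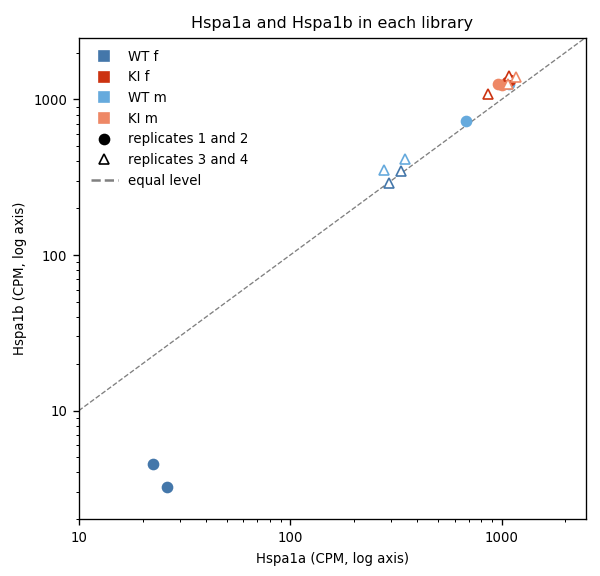
The level of Hspa1b (CPM, log axis) is plotted against that of Hspa1a (CPM, log axis) for each of the 16 libraries, coloured by group, with circles for replicates 1 and 2, triangles for replicates 3 and 4 and a dashed line of equal level. In 14 libraries the points lie along the line, with ratios of 0.999 to 1.31, and WT f replicates 1 and 2 lie below it with 0.201 and 0.123.

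The first comparison asked whether these genes differ between microglia of KI and WT mice. Over both sexes, Hspa1a, Hspa1b and Hsph1 were called higher in KI libraries, that is 3 of 10 genes compared to 4.33% of all tested genes (call: FDR under 0.1 by edgeR's quasi-likelihood test and absolute log2 fold change over 0.5). Hspa1a was higher by 1.70 ± 0.50 on the log2 scale (SE; 3.26-fold; FDR = 0.0372), Hspa1b by 1.93 ± 0.66 (3.82-fold; FDR = 0.0735) and Hsph1, the nucleotide exchange factor of HSP70, by 0.79 ± 0.21 (1.73-fold; FDR = 0.0256). All 8 KI libraries were above the WT median for each of these genes, but 2, 5 and 3 of them were above the highest WT library. The call of Hspa1b was lost without any of 6 libraries (KI f replicate 2, 3 or 4, KI m replicate 2, WT f replicate 3 or WT m replicate 4; FDR up to 0.119), and that of Hsph1 without both WT f replicates 1 and 2 (0.66, FDR = 0.137). These are sums over cells, in which fewer cells with a transcript and less RNA per cell cannot be told apart.

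The other 7 genes were not called. Their log2 differences (KI minus WT) ranged from -0.07 ± 0.08 for Hsp90ab1 (FDR = 0.657) to 0.39 ± 0.22 for Hspb1 (FDR = 0.304), a small chaperone that holds unfolded proteins. Dnajb1, the J-domain partner of inducible HSP70, differed by 0.19 ± 0.17, and Hsp90aa1 by 0.22 ± 0.14. An interval of 2 SE around these estimates reached 0.53 and 0.50, so that the fold threshold lay within it for both. Without both WT m replicates 1 and 2 these differences were 0.47 and 0.46. The interval was narrower for Hspa8 (-0.18 to 0.25), Hspe1 (-0.10 to 0.32) and Hspd1 (-0.15 to 0.29). In total, 9 of 10 estimates were above 0 with a median of 0.21, compared to -0.0014 over all tested genes.

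These calls were lost when the replicates were summed by their division. After the counts of replicates 1 and 2, and of 3 and 4, of each group were summed to 8 samples, no member was called, compared to 3.75% of all tested genes in either direction. At an unadjusted p under 0.05, 2 members and 19.5% of all genes differed. The estimates stayed at 1.68 ± 0.71 (FDR = 0.232) for Hspa1a, 1.91 ± 0.95 (FDR = 0.314) for Hspa1b and 0.77 ± 0.29 (FDR = 0.195) for Hsph1. The genotype was also fitted within each division, on all libraries with a sex term and 1 shared estimate of spread. The errors for each division thus also hold the spread of the other. Within replicates 1 and 2 no member was called, by edgeR or DESeq2, against 12.6% of all genes by edgeR, with 1.68 ± 0.77 for Hspa1a (FDR = 0.169), 1.97 ± 1.01 for Hspa1b (FDR = 0.227) and 0.65 ± 0.27 for Hsph1 (FDR = 0.128). In replicates 3 and 4 again none was called by either tool, against 0.401% of all genes, with 1.71 ± 0.70 (FDR = 0.462), 1.90 ± 0.92 (FDR = 0.568) and 0.96 ± 0.27 (FDR = 0.180). For these 3 genes, which had been called over both sexes, the values of the genotypes did not overlap in replicates 3 and 4. The share of all genes without such an overlap was not counted, so this is a description only. Hspa1a was at 860 to 1174 CPM in KI and at 278 to 348 CPM in WT libraries. Hspa1b was at 1083 to 1410 against 292 to 417 CPM, and Hsph1 at 160 to 251 against 77.2 to 115 CPM. Averaged over the sexes, both divisions gave nearly the same estimates for both HSP70 genes, but their group means were arranged differently. In replicates 1 and 2, Hspa1a averaged 1078 CPM in KI f and 24.3 CPM in WT f, but 987 CPM in KI m and 879 CPM in WT m libraries. In replicates 3 and 4 it averaged 970 and 312 CPM in f, and 1121 and 313 CPM in m libraries. A difference of the genotype effect between the divisions was called for no member by either tool and for 0% of all genes (0.03 ± 1.03 for Hspa1a and -0.07 ± 1.34 for Hspa1b). At an unadjusted p under 0.05, 2 members passed in replicates 1 and 2 (26.7% of all genes), 4 in replicates 3 and 4 (8.97%), and 1 (Hspb1, 0.90 ± 0.42) in the test of the difference (8.02%). Without WT m replicate 2, 2 members were called in replicates 1 and 2, and without WT m replicate 1 or KI m replicate 2, 1 was.

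Split by sex, the same 3 genes were called in f libraries, where 2.82% of all genes were higher. Hspa1a was higher by 2.60 ± 0.64 (6.07-fold; FDR = 0.0217), Hspa1b by 2.98 ± 0.86 (7.90-fold; FDR = 0.0504) and Hsph1 by 1.15 ± 0.28 (2.22-fold; FDR = 0.0218). With the summed replicates none of them was called, against 0.0219% of all genes in either direction (FDR = 0.278, 0.342 and 0.274), and all 3 passed an unadjusted p under 0.05, as did 14.3% of all genes. The call of Hspa1b was also lost without KI f replicate 3 (FDR = 0.107) and that of Hsph1 without both WT f replicates 1 and 2 (1.02, FDR = 0.278), whereas Hspa1a (1.72, FDR = 0.0448) and Hspa1b (2.01, FDR = 0.0308) were then still called. In m libraries none of the 10 genes was called by edgeR or DESeq2 or passed an unadjusted p under 0.05, against 0.252% of all genes called and 11.7% at that p, with 0.82 ± 0.60 for Hspa1a (FDR = 0.627), 0.90 ± 0.80 for Hspa1b (FDR = 0.703) and 0.43 ± 0.28 for Hsph1 (FDR = 0.575). Without both WT m replicates 1 and 2, Hsph1 was called higher (1.27, FDR = 0.0746).

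A difference of the genotype effect between sexes was called for no member by either tool, against 0.0274% of all genes, and none passed an unadjusted p under 0.05, which 5.94% of all genes did. The estimates were large but imprecise (f minus m 1.78 ± 0.86 for Hspa1a, FDR = 0.850, and 2.08 ± 1.15 for Hspa1b, FDR = 0.90). A larger genotype effect in f libraries was therefore not shown. Between f and m libraries over both genotypes no member was called by either tool, against 0.0604% of all genes, and 1 passed an unadjusted p under 0.05, compared to 6.56% of all genes. The closest were Hspe1 (f minus m -0.23 ± 0.10, FDR = 0.748) and Hspa1a (-0.92 ± 0.49, FDR = 0.772).

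**Figure D3:**
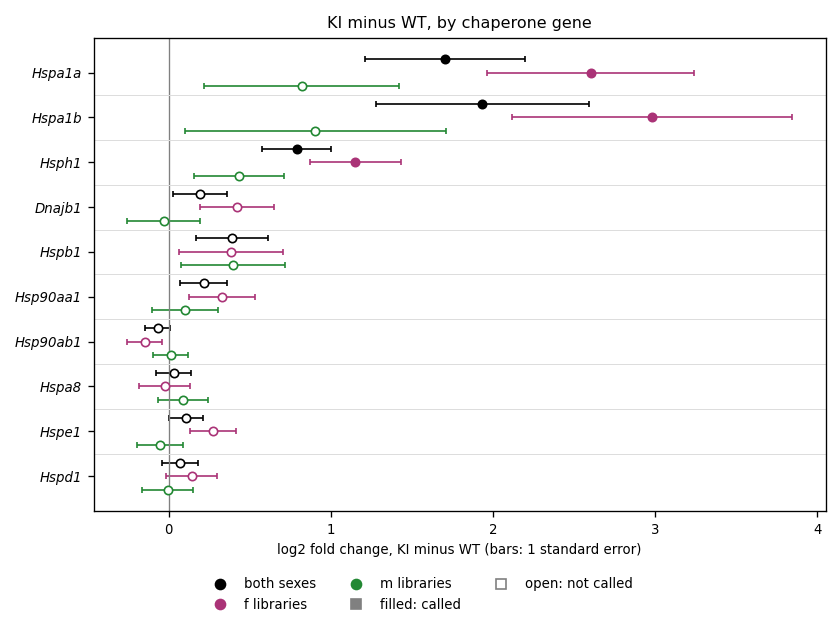
The log2 fold change of KI against WT libraries with its standard error is shown for each gene, over both sexes (black), in f libraries (purple) and in m libraries (green), and filled points mark calls. Hspa1a, Hspa1b and Hsph1 are filled over both sexes and in f libraries, with up to 2.98 for Hspa1b, and no gene is filled in m libraries.

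Next, replicates 3 and 4 were compared with replicates 1 and 2. With 1 term over all 4 groups no member was called by edgeR or DESeq2, against 0.730% of all genes by edgeR, and 3 passed an unadjusted p under 0.05, compared to 15.5% of all genes. The estimates of the HSP70 genes lay near 0 (-0.04 ± 0.49 for Hspa1a and 0.01 ± 0.64 for Hspa1b). By the FDR alone, Hsp90ab1, the constitutive HSP90, was lower in replicates 3 and 4 by 0.23 ± 0.05 on the log2 scale (FDR = 0.0407), against 1.88% of all genes lower by this rule. In replicates 3 and 4 it ranged from 1450 to 1831 CPM with a median of 1686 CPM, and in replicates 1 and 2 from 1774 to 2107 CPM with a median of 1944 CPM, so that the ranges overlapped slightly. Hspd1 (-0.30 ± 0.09, FDR = 0.101) and Hsph1 (-0.46 ± 0.19, FDR = 0.237) pointed the same way without passing.

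An average over groups hid shifts in opposite directions, as became clear when the division was fitted within each group (8 groups of 2 libraries, added after the values were seen). In WT m libraries all 10 genes were lower in replicates 3 and 4, and the values of replicates 3 and 4 lay below those of 1 and 2 for all of them, which held for 19.2% of all tested genes. Of these, 8 were called lower, against 0.137% of all genes, and 5 were when WT m replicate 3 was left out. In WT f libraries 2 members were called higher in replicates 3 and 4, against 0.724% of all genes, namely Hspa1a (3.70 ± 0.20, 13-fold, FDR = 6.85e-08) and Hspa1b (6.31 ± 0.28, 79.5-fold, FDR = 5.70e-09). The values did not overlap for any member there either, with 8 higher and 2 lower in replicates 3 and 4, compared to 24.0% and 23.1% of all genes. In KI f libraries 6 members lay lower without overlap (22.7% of all genes) and in KI m libraries 9 higher (21.1%). The partner libraries were not copies of each other, as their counts differed by 3.32 to 22.0 times the sampling variance.

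**Figure D4:**
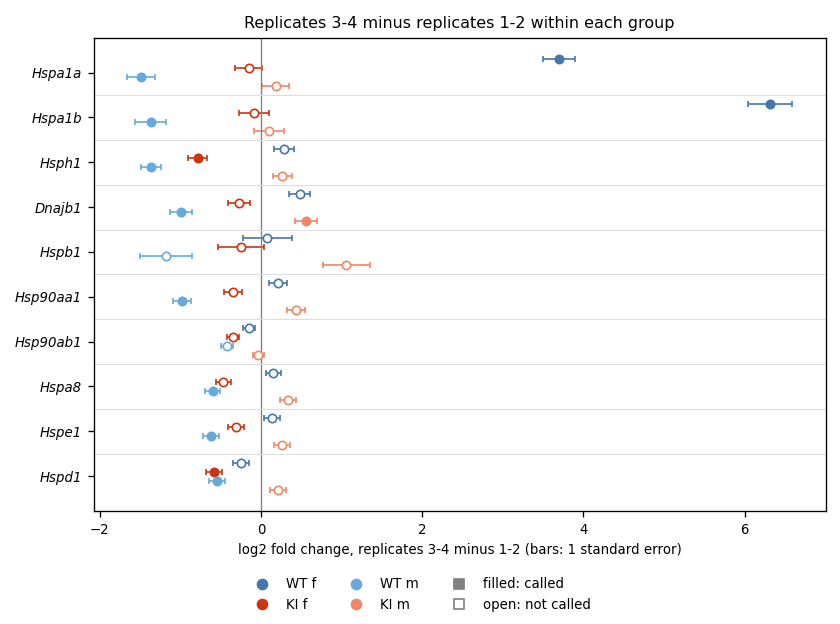
The log2 fold change of replicates 3 and 4 against replicates 1 and 2 with its standard error is shown for each gene within the 4 groups, and filled points mark calls. Within WT m libraries all points lie left of 0, and within WT f libraries Hspa1a and Hspa1b lie far to the right, at 3.70 and 6.31.

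Among the members called in WT m libraries, the decrease was largest for the inducible ones. Hspa1a fell by 1.49 ± 0.17 (FDR = 0.00181), Hspa1b by 1.37 ± 0.19 (FDR = 0.00550) and Hsph1 by 1.36 ± 0.12 (FDR = 0.000209). It was followed by Dnajb1 (-0.99 ± 0.13, FDR = 0.00470) and Hsp90aa1 (-0.98 ± 0.11, FDR = 0.00180). The constitutive and mitochondrial members moved less, with -0.60 ± 0.10 for Hspa8 (FDR = 0.0165), -0.62 ± 0.10 for Hspe1 (FDR = 0.0159) and -0.54 ± 0.10 for Hspd1 (FDR = 0.0367). Hsp90ab1 passed the FDR but not the fold threshold (-0.42 ± 0.07, FDR = 0.0255). Hspb1 differed by -1.18 ± 0.32 without passing (FDR = 0.174), at 21 to 124 counts per library. Border macrophage markers moved in the same libraries. Their summed levels were 654 and 731 CPM in replicates 1 and 2 and 424 and 500 CPM in replicates 3 and 4. Of these markers, 1 of 8, Cd163, was called lower (-1.10 ± 0.18, FDR = 0.0165), against 0.137% of all genes. Their part in the result was not tested.

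The shift in WT f libraries differed from that in WT m libraries for 7 members, which is the test of the difference itself and was called higher for 0.214% of all genes. The difference (f minus m) was 5.19 ± 0.27 for Hspa1a and 7.68 ± 0.34 for Hspa1b. For Hsph1 it was 1.64 ± 0.17, for Dnajb1 1.47 ± 0.19, for Hsp90aa1 1.19 ± 0.16, for Hspe1 0.76 ± 0.14 and for Hspa8 0.75 ± 0.13 (FDR = 0.000415 to 0.0369). Apart from the HSP70 pair, no member passed within WT f libraries alone, where Dnajb1 came closest (0.48 ± 0.13, FDR = 0.122).

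Within KI libraries, Hspa1a and Hspa1b hardly moved with the division (-0.15 ± 0.17 and -0.08 ± 0.19 in f, 0.18 ± 0.17 and 0.10 ± 0.19 in m libraries). In KI f libraries all 10 estimates were below 0, and 2 members were called lower, against 0.0823% of all genes: Hsph1 (-0.79 ± 0.12, FDR = 0.0265) and Hspd1 (-0.59 ± 0.10, FDR = 0.0365). Without KI f replicate 1, 2 or 3 none was called, and without KI f replicate 4 there were 4. In KI m libraries 9 of 10 were above 0 and 1 was called higher, against 1.81% of all genes, namely Dnajb1 (0.56 ± 0.13, FDR = 0.0509). This call was lost without each of the 4 KI m libraries, and a further member was called without each of WT m replicates 1 and 2 and of the 4 KI f libraries. Hspb1 was at 4.25 and 3.81 CPM in replicates 1 and 2 and at 7.30 and 9.42 CPM in replicates 3 and 4, which missed the threshold (1.06 ± 0.29, FDR = 0.102). The shifts differed between KI f and KI m libraries for 3 members, against 0.0384% of all genes called in this direction: Hsph1 (-1.05 ± 0.17, FDR = 0.0787), Hspa8 (-0.80 ± 0.13, FDR = 0.0787) and Hspd1 (-0.80 ± 0.14, FDR = 0.0907). This count changed whichever of the 16 libraries was left out, from 0 (without any of 10 libraries) to 7 (without KI f replicate 4).

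The values of the single libraries show how these shifts relate to the genotype comparison. Hsph1 was at 99.8, 86.8, 112 and 115 CPM in WT f libraries and at 208, 250, 101 and 77.2 CPM in WT m libraries. In KI libraries it was at 287, 296, 160 and 178 CPM (f) and at 206, 186, 251 and 220 CPM (m). Accordingly, 6 of 8 WT libraries lay below the lowest KI library, and replicates 1 and 2 of the WT m libraries lay within the KI range.

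Dnajb1 was at 86.2, 86.7, 116 and 125 CPM in WT f and at 174, 200, 97.7 and 90.5 CPM in WT m libraries. In KI libraries it was at 132, 171, 106 and 145 CPM (f) and at 113, 110, 160 and 169 CPM (m). The highest values belonged to WT m replicates 1 and 2 and the lowest to WT f replicates 1 and 2, so that the same replicates marked both ends of the WT range.

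Hsp90aa1 followed Dnajb1. It was at 474, 479, 545 and 562 CPM in WT f and at 869, 891, 451 and 441 CPM in WT m libraries. In KI libraries it was at 680, 768, 479 and 661 CPM (f) and at 624, 587, 817 and 821 CPM (m). Hsp90ab1 was steadier, with a range of 1450 to 2107 CPM over all libraries, and the ratio of the inducible to the constitutive HSP90 (CPM) was lowest in WT f replicates 1 and 2, with 0.242 and 0.249 compared to 0.277 to 0.448 in the other libraries.

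Hspa8, the constitutive HSP70, ranged from 1236 to 2029 CPM, and its group means of 1639 to 1744 CPM lay closer together than the libraries within any group. Hspe1 ranged from 54.4 to 97.1 CPM and Hspd1 from 69.8 to 120 CPM, with both maxima in WT m replicate 2. They assemble into the same mitochondrial folding chamber, and the ratio of Hspd1 to Hspe1 was 1.80 and 1.58 in WT f replicates 1 and 2, compared to 1.18 to 1.5 elsewhere. Hspe1 lies wholly within the annotated span of Hspd1 on the other strand, and the strand setting of the counting was not given in the sources used here. Hspb1 had no more than 134 counts in any library (2.35 to 9.42 CPM).

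For all 10 genes the SD of the log2 level was larger within groups than within the pairs of replicates 1 and 2 or 3 and 4. It was 1.16 against 0.222 for Hspa1a, 1.88 against 0.267 for Hspa1b and 0.484 against 0.148 for Hsph1, and over all tested genes the medians were 0.239 and 0.209. All 10 members had a larger SD in WT m than in KI m libraries, but only Hspa1a and Hspa1b had a larger SD in WT f than in KI f libraries (2.13 against 0.165 and 3.66 against 0.166).

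After removal of the group means, the members differed in how closely they varied together across the 16 libraries. Hspa1a and Hspa1b were correlated with each other (r = 0.98), but with Hspd1 by no more than 0.02 and with Hsp90ab1 by no more than 0.05, and most closely with Dnajb1 (0.62 and 0.50) among the others. Among the other 8 genes r ranged from 0.43 (Hspb1 and Hsp90ab1) to 0.98 (Hsp90aa1 and Hspe1). Dnajb1 had r = 0.96 with Hsp90aa1 and 0.95 with Hspe1, and Hspa8 had r = 0.96 with Hspe1. These values describe 16 libraries that share preparation and replicate division, and the library pairs are not independent points.

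**Figure D5:**
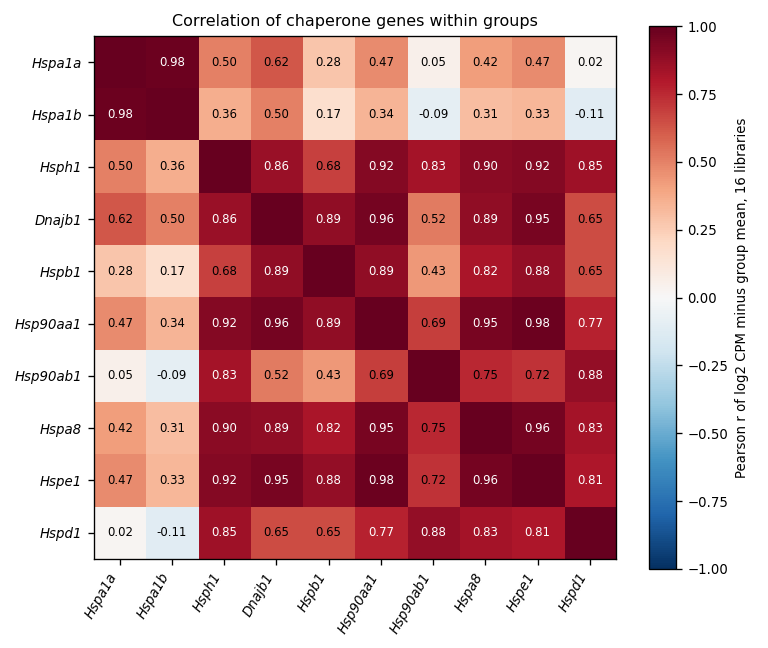
Pearson correlations of log2 CPM after subtraction of each group's mean are given for all pairs of the 10 genes over 16 libraries, from -1 (blue) to 1 (red). Hspa1a and Hspa1b are correlated with each other (0.98), and the other 8 genes are correlated with 0.43 to 0.98.

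Among all tested genes outside the 10, the co-chaperone Bag3, which links HSP70 to selective autophagy, was the most alike to Dnajb1 (r = 0.93 over 16 libraries) and Hsp90aa1 (r = 0.92) without removal of group means. For Hspa1b, the closest genes were Gm20371 (r = 0.93), Gm42598 (r = 0.93), ENSMUSG00000121177 (r = 0.92), Pcsk2 (r = 0.91), a prohormone convertase, and Atp1b1 (r = 0.90), a sodium pump subunit. Their rank correlations were lower, from 0.44 for Pcsk2 to 0.75 for Gm20371, and the levels of Hspa1b span 436-fold. The gene with the most similar pattern to Hspa8 was the J-domain protein Dnaja1 (r = 0.95).

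Other chaperone genes were compared by genotype as well. Of 75 tested genes in the pathway lists (heat shock factors, other HSP70 and HSP110 proteins, J-domain proteins, HSP70 and HSP90 cochaperones, other HSP90 and small heat shock proteins and CCT subunits), 1 was called higher and 2 lower over both sexes, compared to 4.33% and 4.30% of all genes, and 12 passed an unadjusted p under 0.05, compared to 24.1% of all genes, with a median of -0.04 against -0.0014 over all genes. Hspa1l, the third gene of the Hspa1a cluster, was higher (0.85 ± 0.23, FDR = 0.0239) at 0.925 to 4.53 CPM. Hspa5, the HSP70 of the endoplasmic reticulum, was lower (-0.57 ± 0.12, FDR = 0.00600) and so was the J-domain protein Dnajb4 (-0.74 ± 0.12, FDR = 0.000897). Hsf1 transcripts did not move detectably (-0.06 ± 0.08, FDR = 0.731), at 22.8 to 31.9 CPM. None of 15 HSP90 cochaperones, 12 HSP70 cochaperones and 8 CCT subunits was called, with 1, 0 and 1 of them passing an unadjusted p under 0.05.

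With the replicate division over all groups, 2 of the 75 genes were called lower, against 0.0988% of all genes. They were the HSP90 cochaperone Fkbp5 (-0.81 ± 0.24, FDR = 0.0993), a target of glucocorticoids, and the small heat shock protein Cryab (-0.62 ± 0.14, FDR = 0.0387). Of the 75 estimates, 56 lay below 0, with a median of -0.105 against 0.00855 over all genes. An unadjusted p under 0.05 was reached by 36 of them, compared to 15.5% of all genes. The genes called within groups were named after their values were seen. Within WT m libraries 3 were called lower, against 0.137% of all genes: Bag3 (-0.93 ± 0.13, FDR = 0.00524), Dnaja1 (-0.82 ± 0.10, FDR = 0.00296) and Dnaja4 (-0.64 ± 0.12, FDR = 0.0367). Bag3 averaged 68.3 CPM in WT m replicates 1 and 2 and 36.0 CPM in replicates 3 and 4. Within WT f libraries, where Hspa1a and Hspa1b changed most, none of the 75 genes was called by edgeR and 16 passed an unadjusted p under 0.05, compared to 13.6% of all genes. In WT m libraries 30 passed it, compared to 12.6%. Within KI f libraries 3 were called lower, against 0.0823% of all genes, namely Dnaja1 (-0.62 ± 0.10, FDR = 0.0331) and the HSP90 cochaperones Chordc1 (-0.79 ± 0.10, FDR = 0.00567) and Cacybp (-0.75 ± 0.11, FDR = 0.0265), and 30 passed an unadjusted p under 0.05 (10.4% of all genes). Within KI m libraries Bag3 (0.68 ± 0.12, FDR = 0.0113) and Dnajb4 (0.74 ± 0.16, FDR = 0.0264) were called higher, against 1.81% of all genes, and 5 passed an unadjusted p under 0.05 (13.3% of all genes).

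Other genes moved with the same libraries. Summed endothelial markers (10 genes, all detected) were at 181 and 228 CPM in WT f replicates 1 and 2, where Hspa1a and Hspa1b were lowest, and at 69.1 to 135 CPM in the other 14 libraries. Pericyte and fibroblast markers were at 122 CPM in both, against 33.0 to 88.0 CPM elsewhere, and astrocyte markers at 987 and 1179 CPM, against 486 to 793 CPM. Within WT f libraries, where the HSP70 genes increased, 0.763% of all genes were called lower in replicates 3 and 4. They included 3 of 10 endothelial, 3 of 8 astrocyte and 4 of 8 oligodendrocyte markers. Their part in the result was not tested. In the f libraries, 7 of 10 endothelial, 3 of 8 astrocyte and 2 of 7 pericyte and fibroblast markers were called lower in KI. This was beside the higher HSP70 genes and compared to 4.33% of all genes. Of the neuron markers, 2 of 10 were called higher, compared to 2.82% of all genes. In the m libraries the endothelial markers pointed the other way, with 10 of 10 above 0 in KI (median 0.82). In f libraries 0 of 10 were above 0 (median -1.02). In m libraries 8 passed an unadjusted p under 0.05, compared to 11.7% of all genes, and 1 was called higher, compared to 0.0878%. All 8 oligodendrocyte markers were also above 0 there (median 0.61, 8 at an unadjusted p under 0.05, none called). Over both sexes, which averages the shifts in f and m libraries, none of the endothelial, astrocyte, pericyte and fibroblast or neuron markers was called. Nor were border macrophage, olfactory ensheathing or neutrophil markers, while 1 of 8 oligodendrocyte markers was called higher. Of all genes, 4.33% were called higher and 4.3% lower in this comparison. Neuron markers pointed the same way in both sexes, with 8 of 10 above 0 in f (median 0.33) and 9 of 10 in m libraries (median 0.22). Over both sexes 8 of 10 were above 0 in KI (median 0.34). Of these markers, 6 passed an unadjusted p under 0.05, compared to 24.1% of all genes, and their part was not tested either. Red blood cell markers were too low to be tested. Microglia markers were at a summed 19320 to 22960 CPM in all libraries. None of the 10 was called by genotype over both sexes or then passed an unadjusted p under 0.05. With the replicate division over all groups none was called, but 9 of 10 lay below 0, with a median of -0.0873 against 0.00855 over all genes. Of them, 6 passed an unadjusted p under 0.05, compared to 15.5% of all genes.

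Immediate early genes, which are induced within minutes of cell disturbance, also moved with genotype. Of 21 tested, 18 were called lower in KI libraries over both sexes, against 4.3% of all genes, and 18 in f libraries, against 4.33%. In m libraries 0 were called lower, against 0.165% of all genes, and 8 passed an unadjusted p under 0.05, compared to 11.7%. Their summed level was 14590 to 18700 CPM in WT f, 8444 to 9888 CPM in WT m and 3850 to 8844 CPM in KI libraries. The division within WT f libraries gave 2 called higher and 2 lower in replicates 3 and 4, against 0.724% and 0.763% of all genes. Of the 21, 10 passed an unadjusted p under 0.05, compared to 13.6% of all genes. In WT m libraries, where 8 of the 10 members were called lower in replicates 3 and 4, none of the 21 was called, against 0.362% of all genes. Of the 21, 3 passed an unadjusted p under 0.05, compared to 12.6% of all genes. In KI m libraries, where Dnajb1 was called as well, all 21 estimates were above 0 in replicates 3 and 4. Of these genes, 18 were called higher, against 1.81% of all genes. Their part in the chaperone values was not tested.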

How the data were processed

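Total RNA of microglia from 16 samples (4 per genotype and sex) was sequenced by the authors, who aligned paired reads with STAR to GRCm39 and deposited raw counts per gene. Which strand column was taken was not given in the sources used here. The counts were analysed with edgeR 4.0.16 in R 4.3.3. A gene was tested when 8 or more of the libraries (50%) held a minimum of 5 counts. Libraries were TMM-scaled, and quasi-likelihood fits were made on all 18227 genes with Benjamini-Hochberg adjustment (FDR); calls used the thresholds of the published methods, an FDR under 0.1 and an absolute log2 fold change over 0.5. Genotype and sex were fitted together, as 4 groups, and with the division of replicates 1 and 2 against 3 and 4. The fit within 8 groups, the summed replicates and the omission of 2 WT libraries at a time were chosen after seeing the data. Log2 levels used a prior count of 2. Fold changes are log2 values from the fits, errors are SE unless stated, and intervals span 2 SE. RPKM used the canonical transcript length. Alternatives were DESeq2 1.42.0, other filters, thresholds and terms, the replicate number as a block, and leaving out each library. The scripts were tested on simulated data, where changes of 1 on the log2 scale were found in 76.5% and of 2 in 98% for the genotype comparison (17967 genes). Of the genes called there, 6.56% were unchanged. The simulated libraries were independent and held no shifts by sex and replicate division, so that these shares do not give the power in the real data. Named were all members, genes of the pathway lists called by genotype or by the division over all groups, Hsf1, and the 5 genes most like Hspa1b and up to 3 other members. Members and lists were chosen with earlier results of these data known.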

Additional observations from a re-analysis of the deposited data

Results flagged for a closer look

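In 2 of 40 sets of 4 libraries (10 genes in 4 groups), the number chance alone gives, 1 library stood apart by Dixon's ratio (gap over range) at its 95% critical value. These were KI f replicate 4 for Hspa1a (0.845), which was at 860 CPM beside 1057 to 1098 CPM, and KI m replicate 2 for Hsp90ab1 (0.893), which was at 1909 CPM beside 1822 to 1831 CPM.

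The shift between replicates 1 and 2 and replicates 3 and 4 differed between sexes by a test of the difference itself. Between WT f and WT m libraries the log2 difference was 5.186 for Hspa1a, 7.681 for Hspa1b, 1.643 for Hsph1, 1.469 for Dnajb1, 1.194 for Hsp90aa1, 0.7522 for Hspa8 and 0.7589 for Hspe1. Between KI f and KI m libraries it was -1.05 for Hsph1, -0.7994 for Hspa8 and -0.7964 for Hspd1. Each pair of replicates held 2 libraries, and the labels do not say what the division stands for, so that it cannot be told apart from anything that differed between the libraries numbered 1 to 8 and 9 to 16.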

How the results depend on the processing

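With the counts of replicates 1 and 2 and of 3 and 4 summed, 0 members were called by genotype over both sexes and 0 in f libraries, compared to 3 and 3. Without the low count filter, 2 members were called by genotype in m libraries (Hspa1b with an SE of 0.0782 instead of 0.804), 3 in the genotype-by-sex test, 1 between sexes, 3 and 4 by genotype in replicates 1 and 2 and in replicates 3 and 4, and 1 in their difference, compared to 0 in each. Calls among all genes rose as well, in the same order to 880 from 46, 470 from 5, 57 from 11, 2825 from 2305, 542 from 73 and 648 from 0. The cause was not tested. Without both WT m replicates 1 and 2, 1 member was called in m libraries, and Hsp90ab1 differed by 0.004341 by genotype. By the FDR alone, 1 member was called for the replicate division. In KI m libraries it gave 0 members at an FDR of 0.05, 2 with DESeq2 and 2 without the filter (compared to 1), and its difference between KI f and KI m gave 0, 5 and 7 (compared to 3). Among all genes, 984 were called in KI m libraries without the filter (compared to 366) and 1108 for that difference (compared to 8). Over all groups, the division effect of Hspa1b reversed to -0.005807 without the filter and to -0.1177 without genotype and sex terms, and that of Hspb1 to 0.004555.

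Leaving out each library, members called ranged from 0 to 2 for genotype in replicates 1 and 2, from 5 to 8 for the division in WT m, from 0 to 4 in KI f and from 0 to 2 in KI m libraries, and from 0 to 7 for the difference between KI f and KI m. The genotype effect of Hspa8 ranged from -0.01968 to 0.09377, and the division effect over all groups from -0.295 to 0.2977 for Hspa1a, -0.2747 to 0.4053 for Hspa1b, -0.161 to 0.02241 for Dnajb1 and -0.1792 to 0.0863 for Hspb1. The genotype calls of Hspa1a and Hsph1 were kept in 16 of 16 omissions.

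With the replicate number as a replicate block, 2 members were called by genotype, as Hspa1b missed the threshold (1.952, FDR = 0.1041), and 3 in f and 0 in m libraries. Same-numbered libraries were weakly correlated, with r from -0.33 to 0.292 and 8 of 24 pairs above 0.1. For 8 of 16 libraries the best match in another group had their own number. Whether the number pairs the libraries was not tested. Hspa1b also missed the threshold without the sex term (1.596, FDR = 0.1376). Genes called by genotype numbered 1574 and ranged from 683 with summed replicates to 2692 with the FDR alone. In f libraries they numbered 1304 (4 to 2136), in m libraries 46 (4 to 880), for the division 133 (53 to 698), for genotype in replicates 3 and 4 73 (20 to 542), and for the genotype-by-sex test 5 (0 to 470).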
